A study of Mus musculus with 12 samples.

Results

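Cytosolic ribosomal protein genes were taken as every row of the gene count table whose symbol starts with Rpl or Rps and a digit, together with Rplp0, Rplp1, Rplp2 and Rpsa, without the S6 kinase genes and without rows named as pseudogenes. The rule found 86 genes among 23457 rows. By their roles, 43 encode proteins of the large (60S) subunit, 31 encode proteins of the small (40S) subunit, 3 encode the P stalk, 8 are paralogs of another member, and 1, Rps19bp1, encodes a protein that binds Rps19 and is not a ribosomal protein. All 86 were kept because the rule names them, and Rps19bp1 is set apart in every count by role.

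The RNA came from adult C57BL/6J mouse hearts collected 9 to 10 weeks after tamoxifen. The 6 Parkin KO hearts carried a floxed Parkin gene and the MERCreMer transgene, a Cre recombinase that tamoxifen activates, and the 6 noninduced hearts carried the floxed gene without Cre. By the labels the transgene belongs to the Parkin KO group only, so its effect and that of Parkin loss cannot be told apart. The protocol names the frozen ventricular apex as the source of the RNA, while the tissue label reads whole heart. Polyadenylated RNA was sequenced from 1 end without strand information, and gene counts summed to between 11610507 and 16884516 per library. The labels name 6 hearts per group and do not tell which animals shared a litter or a preparation day.

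Several libraries departed from their labels or from their group. Park2, the Parkin gene, averaged 2.22 ± 0.64 CPM (counts per 1000000 counts of the scaled library) in the 6 Parkin KO libraries and 2.31 ± 0.51 CPM in the 6 noninduced ones (mean ± SD); the table counts the whole gene and not the floxed part, so this value does not check the deletion. Esr1, whose sequence the MERCreMer fusion shares in part, reached 1553 to 4683 CPM in Parkin KO libraries, but the libraries labelled noninduced 1 and noninduced 3 held 558 and 962 CPM, far above the 24.0 to 64.9 CPM of noninduced 2, 4, 5 and 6. Xist, the transcript of the inactive X chromosome, was under 10 CPM in 3 Parkin KO libraries (2, 5 and 6), and the library labelled noninduced 3 held 77.2 CPM of Xist together with 4.53 CPM of the Y-linked Ddx3y. Of 12 cardiomyocyte markers all were tested, and their sum lay between 94521 and 114667 CPM in Parkin KO, against 76606 to 106189 CPM in noninduced libraries. The sum of 6 atrial markers was 158 to 1547 CPM in Parkin KO, against 121 to 5987 CPM in noninduced libraries, highest in noninduced 5, 6 and 2. In noninduced 6 the sum was almost all Nppa, at 4049 CPM, with 1.37 CPM of Myl7, while noninduced 2 and 5 held 760 and 1107 CPM of Myl7. In whole-tissue RNA, fewer cells of a type and less RNA per cell cannot be told apart.

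A cytosolic ribosome joins a small subunit, which decodes the mRNA, to a large subunit, which forms the peptide bond, and each ribosomal protein is needed in about equal number. Most of the mRNAs start with a run of pyrimidines, the 5′ terminal oligopyrimidine (TOP) tract, through which mTORC1 and LARP1 set their translation and stability together. Striated muscle adds a tissue-restricted member, Rpl3l, which can take the place of Rpl3 in the large subunit.

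The annotated starts of these genes were searched for such runs. RefSeq's GRCm38.p6 promoter table held 65 of the 86 members, and 49 of them (75.4%) had the letters CTCTT, the letters CTTTC, the letters CTTTT or the letters CTTCC on the transcribed strand between 10 bases before and 50 bases after an annotated start, against 8298 of all 27025 genes in the table (30.7%). On the other strand the shares were 29.2% of members and 32.9% of all genes. CTTCC read on the other strand is GGAAG, a core that ETS-family factors also recognise, so this letter string is not specific to the TOP tract. Among members of the 60S and 40S subunits and the stalk, 44 of 57 (77.2%) held a match. The windows below run 5′ to 3′ on the transcribed strand, with the pyrimidine run that holds the match in capitals. They show 5 members that were low in noninduced libraries 1 and 2 (described below), 3 that were not, the muscle paralog, the least abundant tested member and a stalk gene without a match.
Rps6, chr4:86857349-86857378, minus strand: ggaagtcgggCCTCTTTTTCgtgacgcctc
Rpl11, chr4:136053361-136053390, minus strand: gggccggaagTCTCCCTCTCTCTTCCTgtt
Rpl38, chr11:114668568-114668597, plus strand: ggaagcctcgTTCTTTCCCCgttctcttcg
Rplp2, chr7:141447636-141447665, plus strand: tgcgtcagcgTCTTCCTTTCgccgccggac
Rps21, chr2:180257399-180257428, plus strand: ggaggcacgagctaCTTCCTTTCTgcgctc
Rps26, chr10:128626484-128626513, minus strand: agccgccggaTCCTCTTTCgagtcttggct
Rps15, chr10:80292446-80292475, plus strand: gcagcccgtaCTTCCTTTTCCgagtaaccg
Rpl28, chr7:4792952-4792981, plus strand: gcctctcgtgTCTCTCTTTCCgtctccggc
Rpl3l, chr17:24727846-24727875, plus strand: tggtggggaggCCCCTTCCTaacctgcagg
Rpl22l1, chr3:28805499-28805528, plus strand: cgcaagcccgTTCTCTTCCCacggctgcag
Rplp0, chr5:115559457-115559486, plus strand: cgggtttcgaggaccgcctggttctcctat
In Rps6, Rpl38, Rps26, Rpl28 and Rpl22l1 the run begins within 4 bases of the annotated start, and in Rplp2 5 bases before it. In Rpl11, Rps15, Rpl3l and Rps21 the run begins 14, 26, 32 and 35 bases after the annotated start. These are matches of letters in a window and were not tested as TOP tracts.

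Of the 86 genes, 81 had enough counts to be tested, and 5 did not. Rpl10l, a paralog of Rpl10 known from mouse testis, had 0 counts in every library, and Rpl39l, a paralog of Rpl39, had 0 to 3 counts. Rpl26, Rpl30 and Rps27 encode core subunit proteins but had 0, 3 to 14, and 2 to 11 counts per library. Their values in the authors' FPKM table, which corrects for transcript length, were not low in the same way: Rpl26 ranged from 0.000376 to 419 FPKM in Parkin KO and from 0.00162 to 433 FPKM in noninduced libraries, and Rps27 from 5.25 to 72.4 FPKM in Parkin KO and from 4.96 to 675 FPKM in noninduced libraries. No fold change is given for these 5 genes. Low counts were not limited to them. Rpl34 and Rpl39, also of the large subunit, were tested on means of 13.4 and 84.9 counts per library.

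Ribosomal protein genes have many processed copies in the mouse genome, and the share of a member's sequence that is its own bears on its counts. Across members, a median of 51.5% of the 50-base stretches of the reference transcript occurred in no other GENCODE vM21 gene's transcript. In 15 members the share was under 20%, among them Rps27 (1.35%), Rpl9 (6.68%), Rpl10 (7.87%) and Rpl3 (14.4%), and in 16 it was over 80%, among them Rpl3l (100%) and Rpl8 (92.1%). How the authors' counting treated reads that fit several places is not given in the sources used here, so levels of members with few stretches of their own are uncertain. In 16 members more than 10% of the exon bases also lie in another gene, and without strand information such reads cannot be assigned to 1 of them.

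Per length, the family spanned a wide range around a high middle. The mean FPKM of the 81 tested members ran from 2.71 to 2486 in Parkin KO (median 370.2) and from 3.51 to 2703 in noninduced hearts (median 383), and 71 members averaged 100 FPKM or more in each group. Rplp1, an acidic stalk protein that helps to bring elongation factors to the ribosome, was the highest in noninduced hearts, with 2140, 2408 and 3070 FPKM as lowest, median and highest in Parkin KO, against 2395, 2628 and 3100 FPKM in noninduced. Rpl41, a very short large-subunit peptide, came next, with 1835, 2062 and 2212 FPKM in Parkin KO, against 1749, 2016 and 2047 FPKM in noninduced. Rps15, a protein of the small-subunit head, followed, with 1440, 1647 and 1935 FPKM in Parkin KO, against 1577, 1673 and 1872 FPKM in noninduced. The groups overlapped for all 3 genes. At the other end stood Rps15a, a small-subunit protein, with 8.75 ± 2.08 FPKM in Parkin KO and 6.996 ± 3.36 FPKM in noninduced (SD, n = 6 each). Rps15a averaged 445 counts per library, and its reference transcript has 5179 bases, against a median of 834 over members. The transcript length behind its FPKM is not stated, so its low place in this order is uncertain. Rps19bp1 had 7.24 ± 1.23 FPKM in Parkin KO and 6.40 ± 1.94 FPKM in noninduced. Rpl22l1, a paralog of Rpl22, was lowest, with 2.71 ± 1.64 FPKM in Parkin KO and 3.51 ± 2.25 FPKM in noninduced.

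Most neighbours in this order could not be told apart. Of 80 steps between neighbouring members in noninduced hearts, 72 were smaller than the larger SD of the pair. The 8 larger steps lay at both ends, 4 of them between Rplp1 and Rpl35 and 4 at or below Rpl5.

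**Figure D1:**
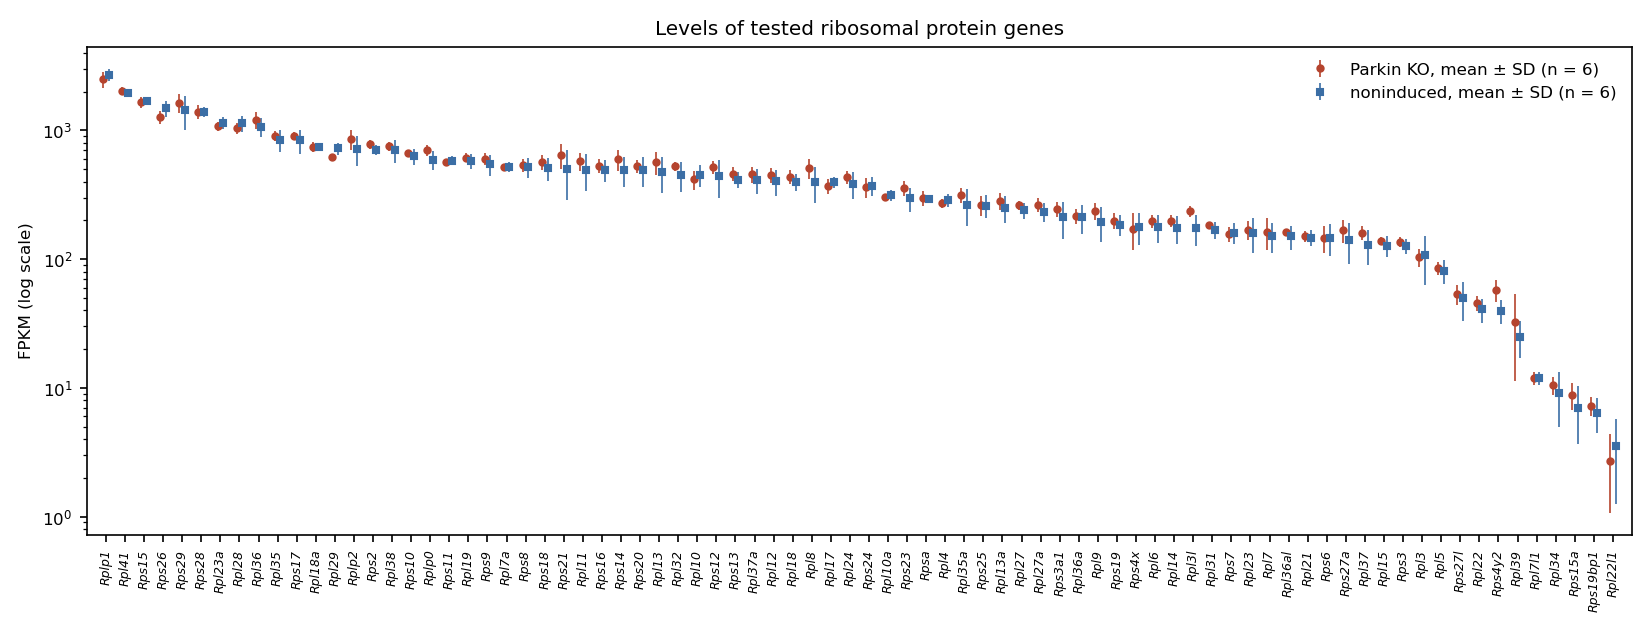
Mean FPKM ± SD (n = 6) of 80 of the 81 tested members on a log axis, ordered by their mean in noninduced hearts, with Parkin KO left of noninduced for each gene. From Rplp1 at 2703 FPKM to Rpl5 the order falls gently, and the last 9 genes drop from 49.97 FPKM (Rps27l) to 3.51 FPKM (Rpl22l1) in noninduced hearts.

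Before any comparison of groups, the members differed between libraries, and 4 libraries stood low. The typical member did not vary more than the typical gene. The median SD of log2 CPM over the 12 libraries was 0.21 for the 81 members and 0.24 for all 13050 tested genes. For members it was 0.18 after each library's median over members was subtracted. Members took 1.76, 1.58, 1.91, 1.91, 1.92 and 1.88% of the gene counts in Parkin KO libraries 1 to 6, against 1.48, 1.43, 1.68, 1.90, 1.91 and 1.95% in noninduced libraries 1 to 6. Noninduced 2, 1, Parkin KO 2 and noninduced 3 were the 4 lowest. After scaling, the number of members above their own mean over the 12 libraries was 46, 13, 55, 59, 69 and 65 of 81 in Parkin KO 1 to 6, and 16, 12, 25, 64, 51 and 63 of 81 in noninduced 1 to 6. Noninduced 2 held the lowest of the 12 values for 35 members and noninduced 1 for 16. The matching shares of all tested genes, above their mean or lowest in each library, were not computed. Whether these counts are particular to the members is therefore not known.

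The same 4 libraries had the highest share of counts on genes of the mitochondrial DNA: 9.53% in Parkin KO 2, and 16.7, 16.0 and 10.54% in noninduced 2, 1 and 3, against 5.17 to 8.75% in the other 8 libraries. With those genes left out of the total, members took 1.75 to 2.104% in Parkin KO and 1.72 to 2.12% in noninduced libraries, and the same 4 libraries remained the lowest at 1.72 to 1.87%. Noninduced 2 and 1 were also the 2 libraries of fewest counts. The part of the mitochondrial share and of depth in these low values was not tested.

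**Figure D2:**
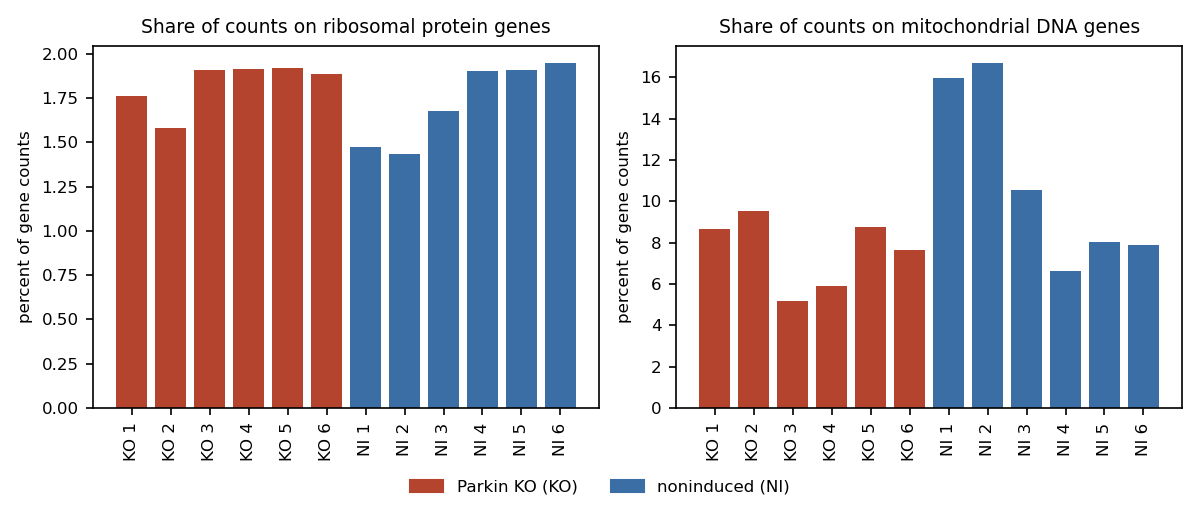
Percent of each library's gene counts on the 86 members (left) and on genes of the mitochondrial DNA (right), Parkin KO libraries first. Parkin KO 2 and noninduced 1, 2 and 3 have the 4 lowest bars on the left, 1.43 to 1.68%, and the 4 highest on the right, 9.53 to 16.7%.

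The low values did not take in every member. Between noninduced libraries 1 and 2 and noninduced libraries 4 to 6, a split chosen after the values were seen, 66 of 81 members were lower in libraries 1 and 2, 24 of them by more than 0.5 in log2 CPM, with a median of -0.34 against -0.04 over all tested genes. The shares of all tested genes lower, or lower by more than 0.5, were not computed. Lowest of the members were the small-subunit genes Rps15a (-1.45), Rps21 (-1.07) and Rps12 (-0.81), the paralog Rpl22l1 (-1.29) and Rpl3 (-0.79). Rpl3 lies near the catalytic centre of the large subunit. The value of Rpl22l1 rests on few counts, with 0.355 and 0.379 CPM in noninduced 1 and 2. Another 15 members were higher there, led by Rps26 (0.55), a protein at the mRNA exit of the small subunit, Rpl29 (0.52), Rplp1 (0.41) and Rps15 (0.31). Both kinds carried the pyrimidine run printed above: 13 of the 17 strongly lower members in the promoter table had a match, and so did 7 of the 9 higher members in it.

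Parkin KO 3 held the highest of the 12 values for 15 of 81 members and the lowest for 12. Its log2 CPM was more than 0.5 below the mean of the other Parkin KO libraries in 6 members: Rpl22l1 (-2.59, with 0 counts), Rpl39 (-1.54), Rps4x (-1.16), Rpl7 (-0.97), Rps6 (-0.72) and Rps25 (-0.54). The transcripts of these 6 hold 40.6 to 50.9% GC. Across the 81 members, this difference ran with GC content (Spearman's rho 0.51, genes of 1 set of libraries and not independent) and not with the share of unique sequence (rho -0.03). For the difference between noninduced 1 and 2 and noninduced 4 to 6, rho was 0.27 with GC content and 0.01 with unique sequence. Set against GC, each library's deviations had a rho between -0.54 (Parkin KO 1) and 0.49 (Parkin KO 3) in Parkin KO and between -0.50 and 0.24 in noninduced libraries.

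**Figure D3:**
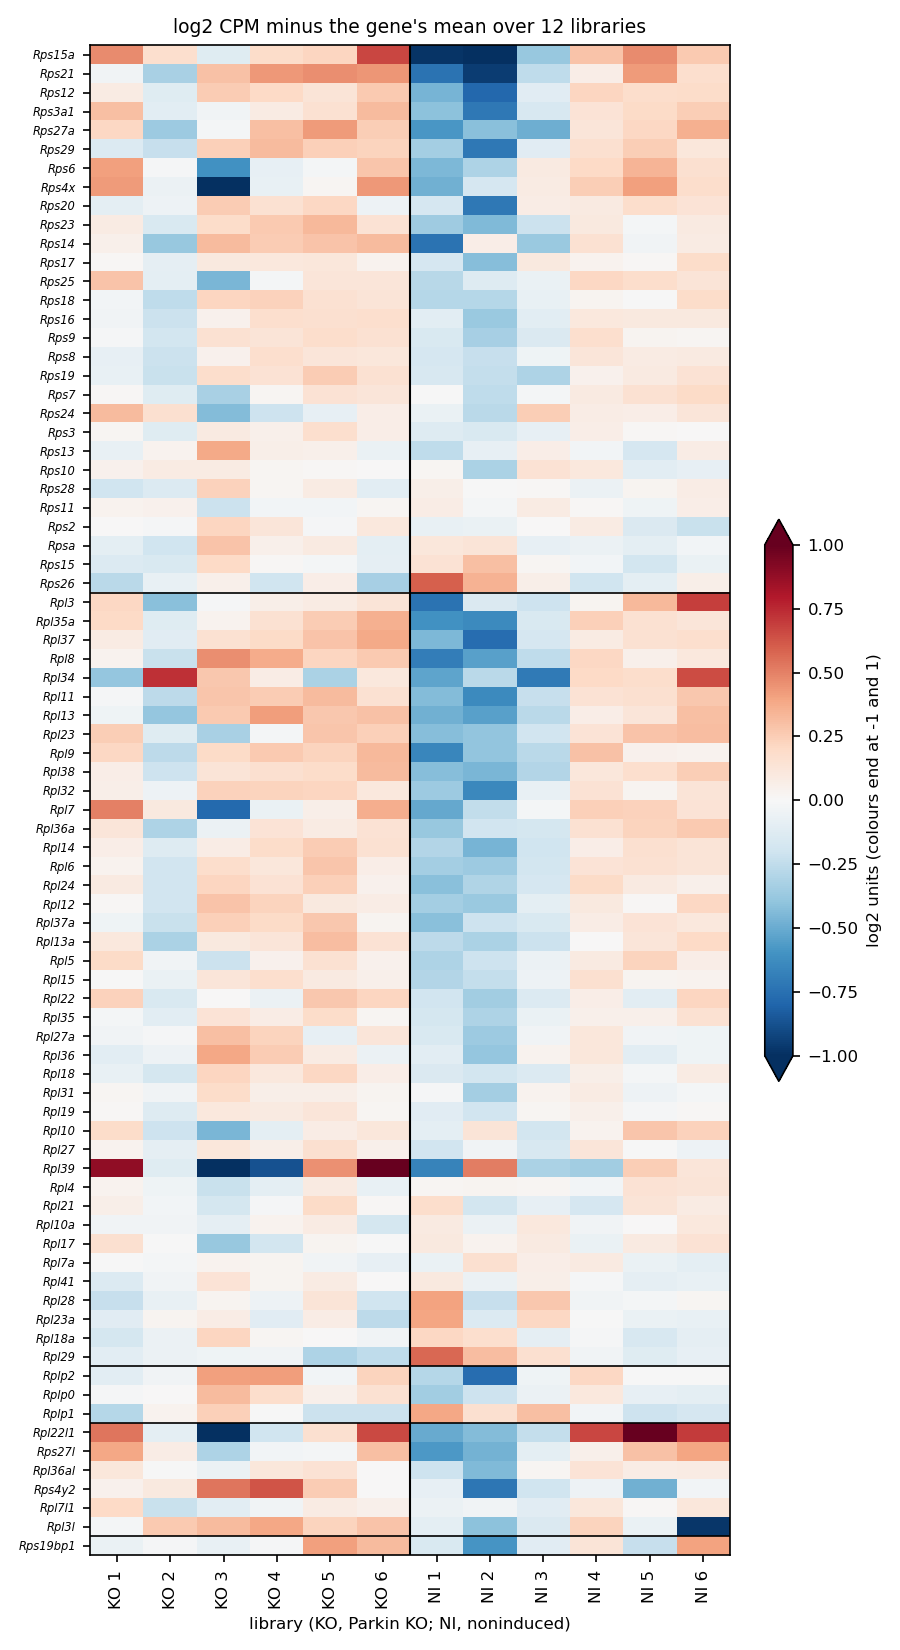
log2 CPM of 80 of the 81 tested members minus each gene's mean over the 12 libraries, Parkin KO libraries on the left; rows are grouped, from the top, as small subunit, large subunit, P stalk, paralogs and Rps19bp1, and ordered in each group by the difference between noninduced 1 and 2 and noninduced 4 to 6. Noninduced 1 and 2 are low in most rows, and Rps26, Rpl29 and Rplp1 at the lower edge of their groups are high there.

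Between Parkin KO and noninduced hearts, no ribosomal protein gene passed the test. In edgeR's quasi-likelihood fit over 13050 genes with Benjamini-Hochberg adjustment at 0.05, 0 of 81 members and 0 of all genes (0%) passed, and the smallest adjusted p among members was 0.417. DESeq2 and limma-voom also called 0 members. At an unadjusted p under 0.05, 5 members were higher in Parkin KO, against 5.82% of all genes, and 1 was lower, against 5.54% of all genes. These counts moved with single libraries: 2 or 3 members were higher without Parkin KO 3, 4, 5 or 6 or without noninduced 1, 2 or 3, and 8 to 11 without Parkin KO 2 or noninduced 4, 5 or 6. The share of all genes at that threshold, in either direction, moved with them: it was 11.4% with all libraries, 7.10 to 10.5% in the first set of fits and 11.8 to 16.3% in the second.

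Most members lay slightly above 0. The log2 fold change, Parkin KO over noninduced, was above 0 in 59 of 81 members (72.8%), against 52% of all tested genes, with a median of 0.11 against 0.01. The members share libraries and vary together, so this count has no test. The median was 0.07 without noninduced 1 and 0.05 without noninduced 2. Without both, an alternative added after the data were seen, it was 0.02 against -0.01 over all genes, 49 of 81 members were above 0, and 2 were higher and 0 lower at an unadjusted p under 0.05. Without noninduced 1 and 3, the libraries with Esr1 counts, the median was 0.06. The share of counts on members averaged 1.83 ± 0.14% in Parkin KO and 1.72 ± 0.23% in noninduced libraries, a difference of 0.10 percentage points that lay within the spread between libraries, and the difference was -0.03 without noninduced 1 and 2.

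The fit gave each gene a 95% interval, not adjusted for the number of genes and with all libraries taken as labelled. The 95% interval of 79 of the 81 members lay within 1 log2 unit of 0, and that of 67 lay within 1.5-fold in either direction. The median interval reached 0.24 log2 units to each side for members and 0.29 for all tested genes.

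**Figure D4:**
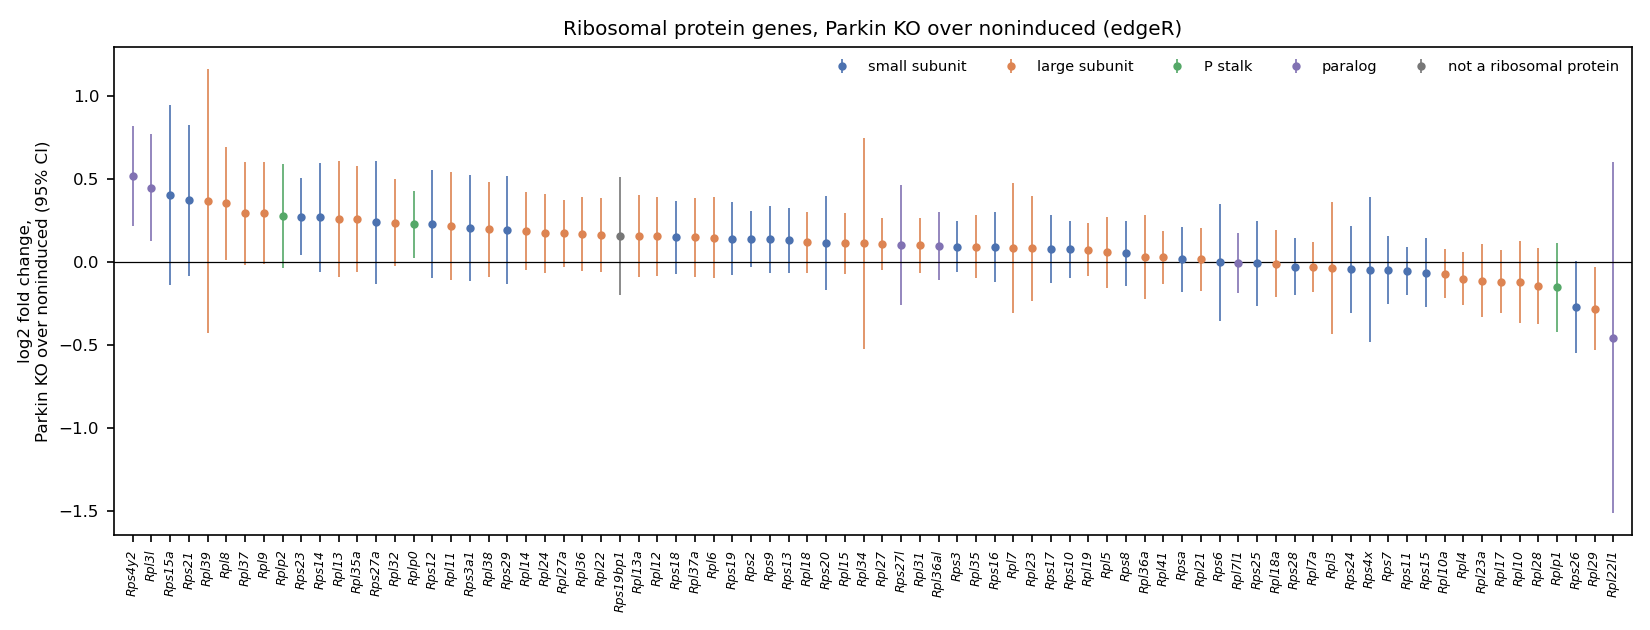
log2 fold change, Parkin KO over noninduced, with its 95% interval from edgeR for 80 of the 81 tested members, ordered by value and coloured by role. More points lie above 0 than below and roles are mixed along the order; the interval excludes 0, before adjustment, in 5 higher members and in Rpl29.

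By role, the subunits did not separate. Of the large subunit, 31 of 41 tested genes were above 0 (median 0.11), and of the small subunit 21 of 30 (median 0.10). Rpl8, a large-subunit protein beside the catalytic centre, had 258, 354 and 415 CPM as lowest, median and highest in Parkin KO, against 186, 282 and 348 CPM in noninduced. The groups overlapped, with the lowest value in noninduced 1. Its log2 fold change was 0.35 ± 0.16 (SE; edgeR adjusted p = 0.432). Rps23, a small-subunit protein at the decoding centre, had 67.1, 83.9 and 93.4 CPM in Parkin KO, against 55.2, 69.1 and 79.997 CPM in noninduced, a log2 fold change of 0.27 ± 0.11 (SE; edgeR adjusted p = 0.424).

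Of the members below 0, the 5 of smallest p were Rpl29, Rps26, Rpl4, Rpl28 and Rpl17. Rpl29, a heparin-binding protein of the large subunit, had 275, 320.3 and 332 CPM in Parkin KO, against 312, 355 and 505 CPM in noninduced, with a log2 fold change of -0.28 ± 0.12 (SE; edgeR adjusted p = 0.424). Its 2 highest values were those of noninduced 1 and 2, and without these libraries its log2 fold change was -0.13. Rps26 had 263, 300.3 and 345 CPM in Parkin KO, against 288, 344 and 499 CPM in noninduced, a log2 fold change of -0.27 ± 0.13 (SE; edgeR adjusted p = 0.438), again with the highest values in noninduced 1 and 2. The large-subunit genes Rpl4, Rpl28 and Rpl17 had log2 fold changes of -0.10, -0.15 and -0.12.

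None of 7 members with known roles outside the ribosome or in its signalling passed the test. Rps6, the small-subunit protein that S6 kinases phosphorylate, had 116, 175 and 234 CPM in Parkin KO, against 129, 193 and 223 CPM in noninduced, and its log2 fold change was -0.0026 ± 0.16 (SE). Rpl5 and Rpl11, which with 5S rRNA bind Mdm2 and so tie ribosome assembly to p53, had log2 fold changes of 0.06 ± 0.10 and 0.22 ± 0.15. Rps19, mutated in human Diamond-Blackfan anaemia, stood at 0.14 ± 0.10, Rpl13a, part of a human interferon-responsive translational silencing complex, at 0.16 ± 0.12, and Rpl38, needed in mouse embryos for translation of Hox mRNAs, at 0.20 ± 0.13. Rpsa, also known as the laminin receptor, stood at 0.01 ± 0.09. The edgeR adjusted p of these 7 genes lay between 0.552 and 0.997.

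The 3 stalk genes did not share a direction. Rplp0, the stalk's base, had 763, 827 and 961 CPM in Parkin KO, against 606, 725 and 830 CPM in noninduced, a log2 fold change of 0.23 ± 0.09 (SE; edgeR adjusted p = 0.424). Rplp2, which pairs with Rplp1, had 133, 154 and 191 CPM in Parkin KO, against 84.4, 141 and 166 CPM in noninduced, a log2 fold change of 0.28 ± 0.15. Rplp1 had 584, 661 and 839 CPM in Parkin KO, against 615, 746 and 929 CPM in noninduced, a log2 fold change of -0.15 ± 0.13. The highest Rplp1 value, 929 CPM, was that of noninduced 1, and the lowest Rplp2 value, 84.4 CPM, that of noninduced 2.

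Paralogs gave the 2 largest positive log2 fold changes of the family. Rps4y2 is listed in RefSeq as Rps4l and annotated as a transcribed processed pseudogene on chromosome 6 (148354656 to 148355598 of GRCm38.p6, plus strand). It was the only member whose groups did not overlap in CPM. By that measure, 0.23% of all tested genes were higher in every Parkin KO library than in every noninduced library. Rps4y2 had 36.2, 40.9 and 56.0 CPM in Parkin KO, against 21.9, 32.8 and 35.6 CPM in noninduced. The gap was narrow, from 35.6 CPM in noninduced 6 to 36.2 CPM in Parkin KO 6. In FPKM the groups overlapped, with noninduced 6 at 49.8 FPKM and Parkin KO 1, 2 and 6 at 49.0, 48.1 and 48.3 FPKM. Its log2 fold change was 0.52 ± 0.14 (SE; edgeR adjusted p = 0.417), with the smallest unadjusted p of all members. The lowest values, 21.9 and 25.9 CPM, were those of noninduced 2 and 5, the libraries of highest Myl7. The part of Myl7 in these values was not tested. The other 4 noninduced libraries, at 31.4 to 35.6 CPM, also lay below every Parkin KO library in CPM, though not in FPKM. Of its 50-base stretches, 85.1% are unique among annotated transcripts.

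Rpl3l was the other. It had 233, 286 and 309 CPM in Parkin KO, against 120, 217 and 276 CPM in noninduced, and the groups overlapped through noninduced 4, at 276 CPM. Its log2 fold change was 0.45 ± 0.15 (SE; edgeR adjusted p = 0.417), and 0.32 without noninduced 6. In FPKM, Rpl3l exceeded Rpl3 in 11 of the 12 libraries. The ratio was 1.68 to 3.18 in Parkin KO, 1.51 to 3.15 in noninduced 1 to 5, and 0.619 in noninduced 6. Of the stretches of the Rpl3 reference transcript, 14.4% are its own, against 100% for Rpl3l. The level of Rpl3 is therefore uncertain, and the part of shared sequence in these ratios was not tested. Rpl3 itself had 91.3, 128 and 141 CPM in Parkin KO, against 73.2, 117 and 197 CPM in noninduced, with a log2 fold change of -0.04 ± 0.19 (SE).

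As a share of the pair's counts, Rpl3l made up 62.4, 75.7, 70.8, 70.9, 68.0 and 68.3% in Parkin KO 1 to 6, against 75.1, 61.7, 66.8, 68.9, 59.7 and 37.9% in noninduced 1 to 6. Noninduced 6 lay below all others. These shares carry the same uncertainty in the level of Rpl3. The difference of 7.64 percentage points was within the spread (exact two-sided permutation test over the 12 libraries, p = 0.193, adjusted over 6 pairs 0.385), and it was 2.89 points without noninduced 6. Noninduced 6 also had the highest Myh7, at 6462 CPM, and Nppa, at 4049 CPM, both genes of the fetal and stressed myocardium, and the lowest cardiomyocyte marker sum, 76606 CPM. Among Parkin KO libraries, 1, 5 and 6 had the highest Myh7, at 2640, 3428 and 3917 CPM, with 233, 275 and 288 CPM of Rpl3l, and libraries 2, 3 and 4, at 494 to 893 CPM of Myh7, held 284, 294 and 309 CPM of Rpl3l. Noninduced 1 to 5 held 347, 316, 495, 422 and 680 CPM of Myh7, with 221, 178, 213, 276 and 226 CPM of Rpl3l. Low Myh7 therefore did not always go with high Rpl3l. The part of Myh7 and Nppa in the Rpl3l value of noninduced 6 was not tested.

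**Figure D5:**
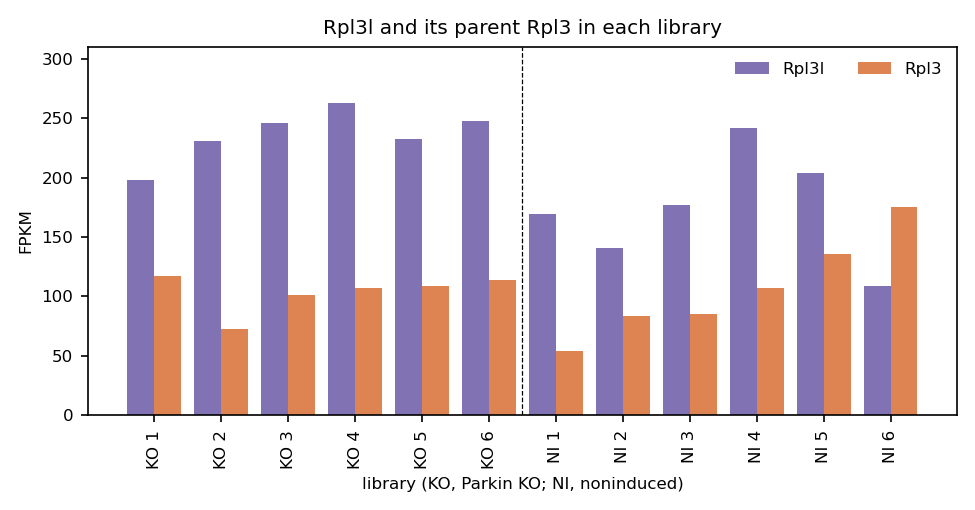
FPKM of Rpl3l and of its parent Rpl3 in each library, Parkin KO libraries left of the dashed line. Rpl3l is the taller bar in every library but noninduced 6, where it stands at 109 FPKM and Rpl3 at 176 FPKM. The level of Rpl3 is uncertain, because few stretches of its transcript are its own.

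The other pairs showed no difference past the test. Exact permutation tests of 6 pairs gave a smallest adjusted p of 0.156, for Rps27l with Rps27, where the parent was nearly uncounted and Rps27l held 94.5 to 97.8% in Parkin KO and 97.0 to 98.3% in noninduced libraries. Rps4y2 made up 28.4 ± 10.8% of its pair with Rps4x in Parkin KO and 20.2 ± 4.90% in noninduced (SD, n = 6 each; exact permutation test, adjusted p = 0.338), with the highest share, 47.3%, in Parkin KO 3. Rpl36al, a paralog of Rpl36a, held 45.4 ± 2.61% in Parkin KO and 44.2 ± 3.20% in noninduced, and Rpl7l1, a nucleolar relative of Rpl7, 19.3 ± 4.45% and 19.8 ± 2.87%. Of the 50-base stretches of Rpl36a, Rpl36al and Rps4x, 14.52, 36.69 and 27.75% are their own. The shares of Rpl36al and Rps4y2 in their pairs are therefore uncertain as well. Rpl22l1, which Rpl22 represses in mice, stayed under 2% of its pair, at 0 to 1.004% in Parkin KO and 0.494 to 1.77% in noninduced libraries.

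Genes around the ribosome gave no called gene either. In the edgeR fit, 0 genes of the 6 lists below passed the adjusted threshold. Among ribosomal proteins outside the naming rule and other TOP mRNAs, 14 of 22 were above 0 (median 0.05), with 1 higher and 2 lower at an unadjusted p under 0.05: Tpt1, a classical TOP mRNA, stood at 0.30, Pabpc1, the poly(A)-binding protein, at -0.36, and the elongation factor subunit Eef1g at -0.21. Fau and Gnb2l1, the RACK1 gene, which encode ribosomal proteins under other names, had log2 fold changes of 0.03 and 0.11.

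Lists for making ribosomes and using them centred on 0. Of ribosome biogenesis factors, 20 of 39 were above 0 (median 0.0006), with 1 higher and 0 lower at an unadjusted p under 0.05; the assembly factor Rrs1 stood at 0.30 and the rRNA methyltransferase Nop2 at -0.16. Of RNA polymerase I and rDNA transcription genes, 9 of 15 were above 0 (median 0.01), with 0 at an unadjusted p under 0.05. Of mTORC1, S6 kinase, LARP1 and MYC control genes, 9 of 19 were above 0 (median -0.0014), with 1 higher and 1 lower at that threshold, and of initiation and elongation factors 15 of 32 (median -0.0041), with 2 higher and 2 lower. Myc stood at -0.42 and its antagonist Mxd4 at 0.19, and the translation factors Eif4g2 and Eif1ax stood at -0.46 and 0.36. Of 6 tested non-coding hosts of snoRNAs, which also carry TOP tracts, 5 were above 0 (median 0.28), led by Snhg6 at 0.77, with a mean of 0.906 ± 0.222 CPM (SD) in Parkin KO hearts and of 0.532 ± 0.222 CPM in noninduced hearts.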

How the data were processed

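Per the submitters' processing notes, reads were handled with Bowtie2, TopHat2 2.0.10 and HTSeq on mm10, with Cufflinks 2.1; their settings, the annotation and the treatment of multiply mapped reads were not stated. The authors deposited whole-number counts per gene (HTSeq, 23457 rows) and FPKM values per gene (23369 rows), each with 12 columns. Counts were tested with edgeR 4.0.16 (R 4.3.3): filterByExpr, TMM scaling and the quasi-likelihood test of Parkin KO over noninduced (6 hearts each, no covariate), fitted to all genes with Benjamini-Hochberg adjustment over 13050. CPM use the scaled library sizes. Total counts of 11610507 to 16884516 per library make 1 count worth 0.0592 to 0.0861 CPM. FPKM were used only to set genes side by side and, as log2(FPKM + 1) and log2(FPKM + 0.1), in limma 3.58.1 as an alternative. DESeq2 1.42.0 and limma-voom were further alternatives, together with leaving out each library. The edgeR steps were tested on simulated data. Paralog shares were compared by exact two-sided permutation over the 12 libraries (smallest possible p = 0.00216), adjusted over the 6 pairs whose paralog averaged 10 counts or more. Named are the 5 members of smallest p in each direction, the 3 highest and 3 lowest by FPKM, a set chosen by role, and the 2 of smallest p in each list; others named, among them those of the library contrasts, were chosen after their values were seen. The members and the lists were chosen with earlier results of these data known. The 6 rows with pseudogene names held 29 to 84 counts per library and were left out. Values of 1 member and of 1 gene of the lists are not reported here, though both enter the counts.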

Additional observations from a re-analysis of the deposited data

Results flagged for a closer look

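Of 110 groups of 6 libraries checked, 4 had a library whose gap to its nearest neighbour exceeded Dixon's 95% limit, and chance alone flags about 1 group in 20. Rpl7l1 made up 27.7% of its pair with Rpl7 in Parkin KO 3, against 16.1 to 19.7% in the other Parkin KO libraries, with Rpl7 at 67.2 CPM there. Rpl39l stood at 0 CPM in Parkin KO 1 and at 0.284 CPM in noninduced 2, the highest of its group, and both values rest on 0 to 3 counts. Pabpc1 stood at 340.4 CPM in noninduced 1, while noninduced 2 to 6 held 178 to 237 CPM.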

How the results depend on the processing

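No member passed an adjusted p under 0.05 under any alternative run. Over all genes, DESeq2 called 10 and the fit without noninduced 1 and 3 called 1. The median log2 fold change of members stayed above 0 under every alternative (0.02 to 0.14), lowest without noninduced 1 and 2. Members higher at an unadjusted p under 0.05 numbered 2 without scaling factors, with FPKM (pseudocount 1 or 0.1), without noninduced 1 and 3 and without noninduced 1 and 2, 19 with the replicate number as a block, and 2 to 11 when single libraries were left out. Beside them, the share of all genes at that threshold, in either direction, was 13.0% with the block and 7.10 to 16.3% without single libraries, against 11.4% with all libraries and no block. Members lower numbered 2 with RLE scaling, without scaling factors, without mitochondrial DNA genes and with DESeq2, 0 with a sex term and without noninduced 1 with 2 or with 3, and 0 to 2 when single libraries were left out. The cause of these moves was not tested. Same-numbered libraries deviated together with correlations of -0.099 to 0.17. The labels do not say whether the numbers pair the hearts, and weak correlations cannot exclude a shared litter or preparation day. The block result is therefore not given as a paired test.

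Values close to 0 changed sign. Rpsa stood at -0.0048 with RLE, -0.0055 without mitochondrial DNA genes and -0.0022 with DESeq2. Rps6 stood at 0.0015 without scaling factors, 0.00084 without the low-count filter and 0.014 and 0.015 with FPKM (pseudocount 1 and 0.1). Rpl7l1 stood at 0.011 without scaling factors, 0.018 with a sex term and 0.00087 and 0.0010 with FPKM. Rpl3 stood at 0.011 with the block, 0.025 with a sex term, 0.020 with limma-voom and 0.038 and 0.040 with FPKM. With a sex term Rps19bp1, Rpl39 and Rpl7 stood at -0.0012, -0.075 and -0.020. Without noninduced 1 and 3, Rps27l, Rpl7, Rpl5 and Fau stood at -0.040, -0.036, -0.029 and -0.031; without noninduced 1 and 2, Rps27l, Rpl7, Rpl5, Gnb2l1 and Rps15 stood at -0.10, -0.081, -0.059, -0.0066 and 0.025. When single libraries were left out, ranges that crossed 0 were -0.017 to 0.20 (Rpl7), -0.17 to 0.12 (Rpl3), -0.052 to 0.024 (Rpl7l1), -0.011 to 0.054 (Rpl41), -0.058 to 0.044 (Rpsa), -0.097 to 0.085 (Rps6), -0.0066 to 0.069 (Fau), -0.0013 to 0.19 (Rps27l) and -0.0081 to 0.10 (Rpl5). The share of Rpl7l1 differed by 0.264 points without noninduced 1 and 3, by 1.12 points without noninduced 1 and 2, and by -2.27 to 0.393 points without single libraries. The share of Rps27l differed by 32.3 points in FPKM, where Rps27 is not near 0 in every library, and by -2.03 to -1.38 points without single libraries, past the test at an adjusted p of 0.026 without Parkin KO 1 (exact permutation).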
